A study of Mus musculus with 48 samples.

Results

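The 7 genes of the aryl hydrocarbon receptor pathway were read from the cerebral cortex tables of this series by their symbols, namely Ahr, Arnt, Arnt2, Ahrr, Tiparp, Cyp1a1 and Cyp1b1. All 7 were listed in both tables, that is 7 of the 27082 genes used from the B6 table and 7 of the 18939 used from the APOE-TR table. They were described across 12 groups of 4 mice for exposure to nPM, nano-sized particulate matter of urban air, and for the human APOE allele.

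The receptor encoded by Ahr waits in the cytosol in a complex with HSP90 and binds planar aromatic molecules, among them the polycyclic hydrocarbons carried by combustion particles and metabolites of tryptophan. Once bound by ligand it enters the nucleus, pairs with ARNT, and switches on genes that hold a short response element. Cyp1a1 and Cyp1b1 encode cytochromes P450 that oxidize such ligands, Ahrr encodes a repressor that competes for ARNT, and Tiparp encodes an ADP-ribosyltransferase that restrains the receptor. Arnt2 encodes the neural relative of ARNT. Induction of Cyp1a1 is the usual readout of an active receptor, and in brain Cyp1b1 is known from cells of the vessel wall and the meninges.

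The mice were C57BL/6J (B6, wild type, aged 4 months per the labels) or ApoE-TR, in which a human APOE3 or APOE4 gene stands in place of mouse Apoe (aged 6 months per the labels). Females and males inhaled filtered air (control) or nPM for 5 h per day on 3 days per week, over 8 weeks in B6 mice and over 15 weeks in APOE-TR mice. The 2 strains were exposed, tabulated and aged apart, so a level set across them cannot be told apart from these differences, and fits of 4 against 4 mice stayed within 1 table and the fit over 48 mice had a term for each genotype. C57BL/6 mice carry the high-affinity form of the receptor.

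RNA was read at 17.8 to 31.3 M recovered reads per APOE-TR mouse and at an estimated 2.05 to 24.4 M per B6 mouse. Among the APOE-TR mice, females had fewer reads (17.8 to 22.3 M) than males (22.4 to 31.3 M) without overlap. Marker lists for neurons, astrocytes, microglia, oligodendrocytes and endothelial and mural cells were detected in every mouse (7 of 7 genes each), as were the 5 cortical genes, and striatal markers were also detected, with 7 of 7 genes in every mouse. The share of summed CPM in 13 mitochondrial genes was 12.5% to 21.8% in the 4 filtered-air APOE3 females, 7.67% to 14.9% in the 4 exposed ones and 7.03% to 10.9% in the other 24 APOE-TR mice. These genes were not analysed here for B6 mice. Results that rest on these libraries are given with and without the highest of them, filtered-air controls 6 and 61.

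The response element of the receptor has the core GCGTG, which was searched on both strands of the 300 bases around each gene's RefSeq start (250 before it and 50 after it, GRCm38.p6). A window was matched for 6 of the 7 genes, all but Ahr. The core was found in 5 of these 6, and it stands in 32.4% of all 32851 windows of the same length. The 250 bases before the start are shown for the 4 genes known as targets of the receptor, since the question turns on their levels, written 5′ to 3′ on the strand of the gene with the core in capitals (CACGC where it lies on the other strand).
Cyp1a1, chr9:57697363-57697612: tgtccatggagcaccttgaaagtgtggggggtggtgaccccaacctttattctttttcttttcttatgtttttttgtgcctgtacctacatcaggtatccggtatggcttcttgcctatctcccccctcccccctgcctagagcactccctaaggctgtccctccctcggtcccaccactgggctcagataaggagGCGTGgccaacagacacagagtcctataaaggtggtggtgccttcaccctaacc
Cyp1b1, chr17:79715062-79715311: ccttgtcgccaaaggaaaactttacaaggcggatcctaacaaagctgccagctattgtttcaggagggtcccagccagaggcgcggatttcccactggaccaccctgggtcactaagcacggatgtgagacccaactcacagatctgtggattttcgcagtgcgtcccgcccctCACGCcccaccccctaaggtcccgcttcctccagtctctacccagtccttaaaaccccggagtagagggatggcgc
Tiparp, chr3:65528197-65528446: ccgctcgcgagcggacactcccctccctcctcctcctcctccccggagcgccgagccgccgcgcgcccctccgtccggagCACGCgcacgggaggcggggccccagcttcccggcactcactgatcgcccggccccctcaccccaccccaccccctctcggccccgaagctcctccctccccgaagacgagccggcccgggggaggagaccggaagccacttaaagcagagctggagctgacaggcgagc
Ahrr, chr13:74292332-74292581: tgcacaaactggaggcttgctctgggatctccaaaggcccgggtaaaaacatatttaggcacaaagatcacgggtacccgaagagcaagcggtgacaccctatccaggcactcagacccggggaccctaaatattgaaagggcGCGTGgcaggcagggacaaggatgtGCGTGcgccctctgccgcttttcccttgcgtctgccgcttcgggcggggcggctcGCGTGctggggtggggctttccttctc

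Ahrr held 3 cores, which began 107, 82 and 27 bases before the start, and 3.91% of all windows held 3 or more. The last of them also matched the wider motif TNGCGTG, which contains the core and stands in 5.07% of windows. Cyp1a1 held 1 core 54 bases before the RefSeq start, which lies inside the gene as listed for the levels (chr9:57687928-57703825, plus strand) and not at its first base. Cyp1b1 held 1 on the other strand (first base 76 before) and Tiparp 1 on the other strand (first base 170 before). Arnt held 1 core 29 bases before its start (chr3:95434361-95434365) and Arnt2 held none in this window. No 2 of these cores overlapped. These are matches of letters, and binding of the receptor was not measured. Sequence outside these windows, such as enhancers further upstream, was not searched.

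Of the 7 genes Arnt2 had the highest level in cortex, Tiparp, Arnt and Ahr followed, and Cyp1b1, Ahrr and Cyp1a1 were low. Levels of different genes are compared here as CPM per kb of exon, averaged over the 32 APOE-TR mice. Arnt2 stood highest at 39.7 CPM per kb, followed by Tiparp at 3.63, Arnt at 3.34 and Ahr at 1.499. Cyp1b1 had 0.370 CPM per kb, Ahrr 0.0985 and Cyp1a1 0.0502. In B6 mice the order of the first and the last was the same, with Arnt2 at 15.96 and Cyp1a1 at 0.0388 CPM per kb.

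In mm10, as the B6 table lists them, Ahr lies at chr12:35497974-35535039 on the minus strand, Arnt at chr3:95434388-95497241 on the plus strand and Arnt2 at chr7:84246278-84410177 on the minus strand. Ahrr lies at chr13:74211118-74292332 (minus), Tiparp at chr3:65528410-65555519 (plus), Cyp1a1 at chr9:57687928-57703825 (plus) and Cyp1b1 at chr17:79706953-79715042 (minus). Exons of 3 members overlap another annotated gene on the opposite strand, namely the lincRNA Gm48236 at Ahr, the antisense RNA Gm30873 at Arnt2 and the pseudogene 4931440P22Rik at Tiparp. The libraries were stranded, but the use of strand in counting is not given in the sources used here, so reads of these pairs may be mixed.

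**Figure D1:**
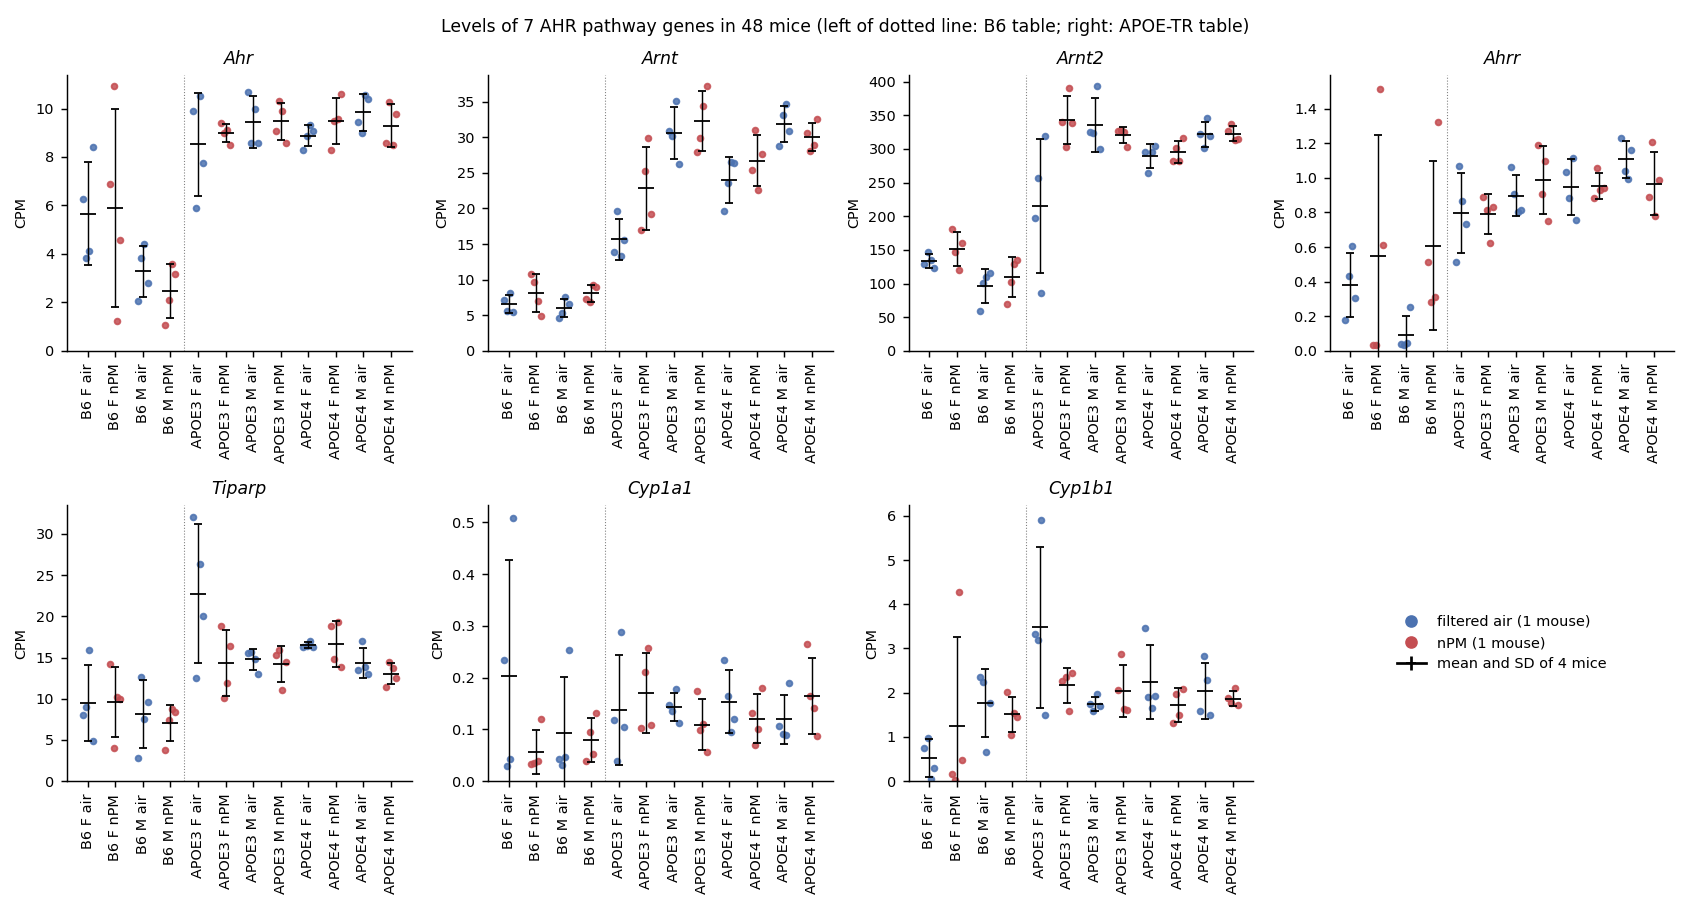
Deposited CPM (y axis, linear, from 0) of the 7 genes in each mouse (points) of the 12 groups (x axis; F, females; M, males; air, filtered air), with the mean and SD of 4 mice in black; the dotted line parts the B6 table from the APOE-TR table. Red nPM points overlap blue filtered-air points within each pair of groups, except for Ahrr in B6 males, and filtered-air APOE3 females spread most for Arnt2 (86.1 to 319.5 CPM) and Tiparp (12.5 to 32.1 CPM).

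The first question was whether inhaled nPM raised the targets of the receptor. Cyp1a1 was at 0 reads in all 8 B6 mice exposed to nPM, and in 2 of 8 B6 controls it had 8 and 4 reads (female controls 40 and 43). The ratio of nPM to filtered air was 0, with a 95% counting interval up to 0.459 that leaves out the spread between mice. All control reads came from those 2 females, and within B6 females the exact permutation test gave p = 0.314. In the deeper APOE-TR libraries Cyp1a1 had 0 to 10 reads per mouse, with reads in 16 of 16 nPM mice and 15 of 16 controls. Summed over mice this was 60 reads in nPM and 56 in filtered air. The ratio was 1.07, with an exact (Clopper-Pearson) 95% interval from 0.734 to 1.57. This interval covers counting error only and leaves out the spread between mice.

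By group, the reads of Cyp1a1 were 2, 0, 5 and 2 in the filtered-air APOE3 females and 2, 5, 6 and 2 in those exposed to nPM. Filtered-air APOE4 males had 3, 2, 3 and 7 reads and nPM-exposed APOE4 males 10, 5, 5 and 2, with the highest read count of all 32 mice (10). In CPM the highest was filtered-air APOE3 female 61 (0.288, against 0.264 in that male). APOE3 males had 17 reads in filtered air and 13 in nPM and APOE4 females 15 and 10, so the sums went up with nPM in 2 of 4 strata and down in 2. Exact permutation tests of log2 CPM gave p from 0.229 to 0.600 in these 4 strata (two-sided, 4 against 4, smallest possible p 0.0286). The counting interval over all 32 mice ended below 2-fold, whereas within single strata it reached 4.26 in APOE3 females and 3.11 in APOE4 males.

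Ahrr, the repressor, had 12 to 49 reads in every APOE-TR mouse. The sums were 487 reads in nPM and 487 in filtered air, a ratio of 1.00 (95% counting interval 0.882 to 1.14). By stratum the log2 differences lay between -0.14 (SE 0.11, APOE4 males) and 0.09 (SE 0.11, APOE3 males). In B6 mice Ahrr lay at the lowest value in some mice and did not pass the filter of the limma fit.

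In B6 males all 4 controls were at 0 reads of Ahrr, and the 4 nPM mice had 12, 2, 5 and 9 (0.513, 0.284, 0.309 and 1.32 CPM). The groups did not overlap (exact permutation p = 0.0286, the smallest possible), as for 2.22% of the genes that passed the filter in B6 males. Against an assumed floor of 3 reads over the 4 controls, the 28 reads were 11.4-fold higher in nPM. From the reads as counted, the 95% interval of the ratio began at 8.69. This interval covers counting error only and leaves out the spread between mice. Control 6, however, had 2.05 M reads in all, and its value without a read, 0.254 CPM, came close to the lowest nPM value. The cortical genes (5 of 5 detected) summed to 81.9, 183.8, 927.9 and 468.9 CPM in controls 0, 2, 3 and 6 and to 589.6 to 839.5 CPM in the nPM mice. The neuron list (7 of 7) summed to 1958 to 4864 CPM and 3666 to 4935 CPM. Both lists were lower on average in the controls, and their part in the values of Ahrr was not tested. B6 females gave no such separation, with 6, 14, 13 and 2 reads in filtered air and 0, 0, 38 and 4 in nPM (exact p = 0.943). When low genes were kept in the fit, the log2 difference in B6 males was 0.82 (SE 0.29, limma adjusted p = 0.991). Reads of B6 mice are estimates, since only 84.3% to 98.0% of their low values fell on whole steps.

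**Figure D2:**
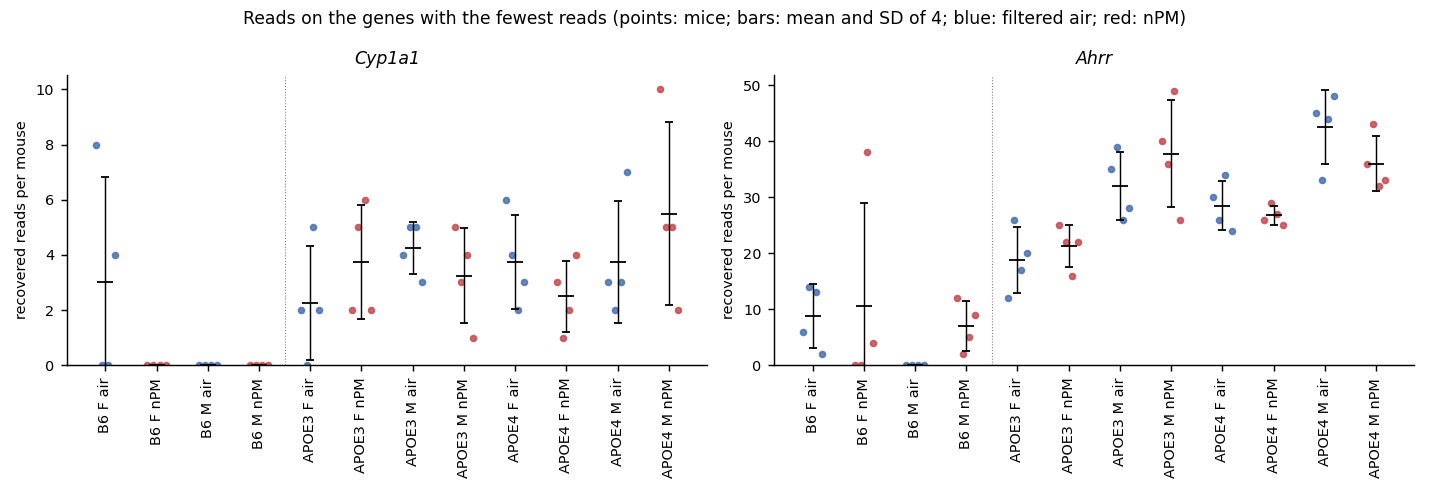
Recovered reads per mouse (y axis, linear) of Cyp1a1 and Ahrr in the 12 groups (x axis; dotted line between B6 and APOE-TR), with mice as points and the mean and SD of 4 as bars. Cyp1a1 never exceeds 10 reads, and Ahrr is at 0 reads in the 4 filtered-air B6 males and at 2 to 12 in the 4 nPM-exposed ones.

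Cyp1b1, the other cytochrome, was detected in every APOE-TR mouse at 39 to 122 reads. Filtered-air APOE3 females had 3.197, 3.33, 5.91 and 1.497 CPM (controls 52, 6, 61 and 63), and those exposed to nPM 2.26, 2.36, 1.58 and 2.46 CPM. The groups overlapped, and the log2 difference was -0.42 (SE 0.30, adjusted p = 0.342 by limma), or -0.03 without controls 6 and 61. Over the 32 APOE-TR mice in 1 fit it was -0.15 (SE 0.12, adjusted p = 0.394). Summed over these mice it had 1037 reads in nPM and 1167 in filtered air, a ratio of 0.891 with a 95% interval of 0.819 to 0.969 that covers counting error only and leaves out the spread between mice. In B6 mice it had no read in 2 of 16, and the group means ran from 0.519 ± 0.424 CPM (SD, n = 4) in filtered-air females to 1.76 ± 0.777 CPM in filtered-air males. There the estimated reads summed to 215 in nPM, 109 of them from female 52, and to 208 in filtered air. The ratio was 1.32, with a 95% interval of 1.09 to 1.60 that again covers counting error only. The exact permutation test gave p = 0.857 in B6 females, and the log2 difference in B6 males was -0.13 (SE 0.37). The fibroblast and meninges list was uneven between mice as well, with a summed level of 34.0 to 94.3 CPM in the filtered-air APOE3 females and 29.0 to 53.8 CPM in the exposed ones (7 of 7 genes detected), and its part in Cyp1b1 was not tested.

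Tiparp showed no change with nPM that passed the test. Over all 48 mice its log2 difference was -0.13 (SE 0.12, adjusted p = 0.611). It averaged 22.7 ± 8.44 CPM in filtered-air APOE3 females and 14.3 ± 4.01 CPM in exposed ones, and between 13.1 and 16.7 CPM in the other 6 APOE-TR groups. As the RNA is from bulk tissue, fewer cells of a type and less RNA per cell cannot be told apart.

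The receptor itself was not called for nPM. Ahr had a log2 difference for nPM of -0.06 (SE 0.13, adjusted p = 0.848) over 48 mice, with a 95% interval from -0.33 to 0.20. Within the APOE-TR table alone it was 0.05 (SE 0.06) with an interval from -0.07 to 0.16. The 8 APOE-TR group means lay between 8.52 ± 2.12 CPM (filtered-air APOE3 females) and 9.84 ± 0.758 CPM (filtered-air APOE4 males), and no 2 neighbours in that order differed by more than the larger of their SDs. In B6 mice the spread was wider, from 1.09 to 10.9 CPM between single mice, and the differences were -0.16 (SE 0.51) in females and -0.41 (SE 0.38) in males.

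Of the 7 genes, 4 (Ahr, Arnt, Arnt2 and Tiparp) passed the filter over all 48 mice, and none of them was called for nPM at p under 0.005, against a background of 1.48% of the 11097 genes tested. Arnt, the partner that the receptor needs on DNA, came closest, at 0.23 (SE 0.09, adjusted p = 0.302). It was higher in nPM in 5 of 6 strata by estimate, and in APOE4 males it was -0.08. Arnt2 stood at 0.20 (SE 0.11, adjusted p = 0.371). Without APOE3 female controls 6 and 61 they were 0.17 and 0.083, and 0.342% of genes were called. Within the APOE-TR table alone they were 0.18 and 0.22 (0.695% called) and within the B6 table alone 0.33 and 0.18 (0.539%), with no member called in either, and without all APOE3 females 0.16 and 0.068 (0.351%). A share of 14.4% of all genes reached p under 0.05, Arnt among them.

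Within strata the calls for nPM numbered 0 of 4 members in B6 females (background 1.2%), 0 of 5 in B6 males (0.24%) and 0 of 6 in APOE3 females (0.665%). They were 0 of 7 in APOE3 males (0.154%), 0 of 7 in APOE4 females (0.272%) and 0 of 7 in APOE4 males (0.178%). For Arnt2 the 95% intervals ran from -0.22 to 0.11 in APOE3 males, from -0.10 to 0.18 in APOE4 females and from -0.11 to 0.12 in APOE4 males. Those of Cyp1b1 were wider in the APOE4 mice, from -0.70 to 0.16 in females and from -0.42 to 0.27 in males. At p under 0.05, 2 of 6 members passed in APOE3 females, Arnt and Arnt2, where 21.1% of all genes did so. In the other 5 strata 0 members did, against 10.5% of genes in the B6 females, 4.32% in the B6 males, 2.22% in APOE3 males, 5.59% in APOE4 females and 4.14% in APOE4 males. Among the members in these fits 0 had groups without overlap, against 6.56% of genes for the B6 females, 2.22% for the B6 males, 6.88% in APOE3 females, 1.42% in APOE3 males, 3.49% in APOE4 females and 2.42% in APOE4 males. By edgeR on recovered reads no member was called in these strata of APOE-TR mice either.

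**Figure D3:**
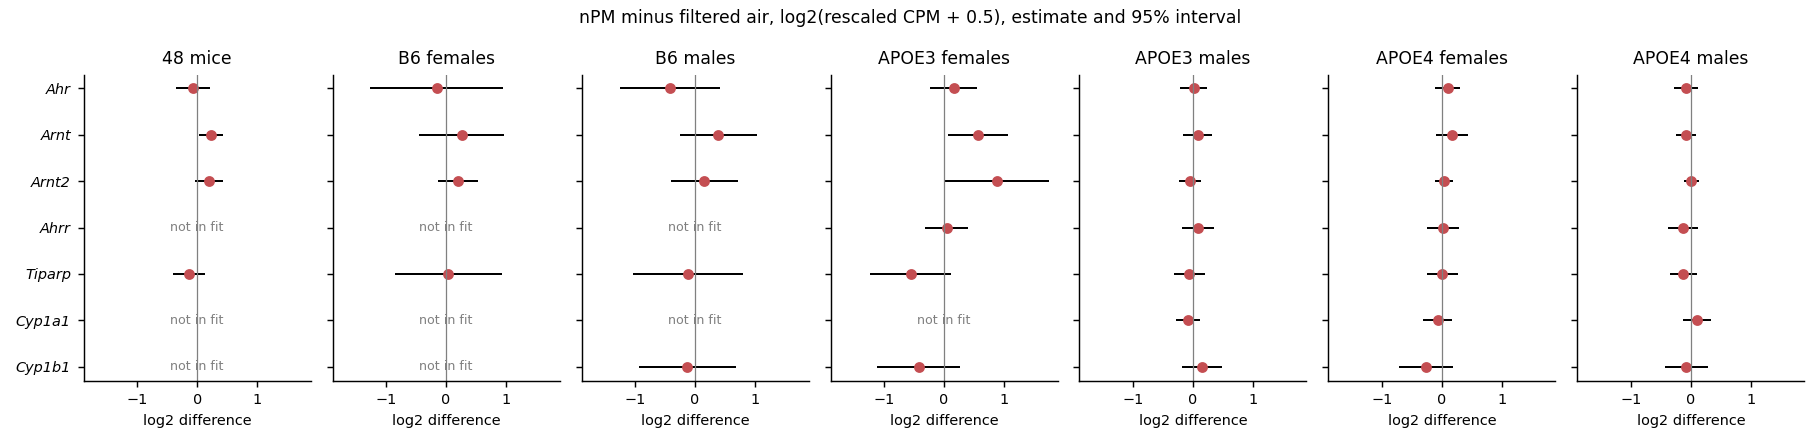
Log2 difference of nPM minus filtered air (x axis, on the scale of log2 of rescaled CPM + 0.5) with its 95% interval from limma, for the 7 genes (y axis) over 48 mice and in each stratum of 8. Every interval reaches or crosses 0 except that of Arnt over 48 mice (0.05 to 0.41) and those of Arnt and Arnt2 in APOE3 females; genes marked as not in fit had a mouse without reads.

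For Arnt, Arnt2 and Tiparp the estimates for nPM were larger in APOE3 females than in the other 5 strata, and they were smaller without filtered-air controls 6 and 61. Those controls were the lowest for Arnt and Arnt2 and the highest for Tiparp. Leaving them out had to raise the control mean of Arnt and Arnt2 and lower that of Tiparp, so the smaller estimates are no separate evidence. Arnt2 had 257, 197, 86.1 and 319.5 CPM in controls 52, 6, 61 and 63, and 340.0, 303, 390.2 and 339 CPM in the nPM mice 55, 59, 67 and 70. The groups overlapped by 1 mouse on each side, since control 63 stood above nPM mouse 59. The log2 difference was 0.88 (SE 0.38, limma adjusted p = 0.229; exact permutation p = 0.0571), and 0.26 (SE 0.15, adjusted p = 0.905) without controls 6 and 61, where 0.522% of genes were called. Leaving out control 61 alone gave 0.47 and leaving out control 63 alone 1.14.

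Arnt had 19.7, 13.9, 13.4 and 15.6 CPM in the same 4 controls and 17.0, 25.3, 29.9 and 19.3 CPM in the nPM mice. Its log2 difference was 0.57 (SE 0.21, limma adjusted p = 0.229, exact permutation p = 0.0571), or 0.35 (limma adjusted p = 0.905) without controls 6 and 61. Leaving out any 1 of the 8 mice gave 0.43 to 0.70 for Arnt. Tiparp went the other way, with 12.5, 32.1, 26.4 and 19.99 CPM against 18.8, 10.1, 11.9 and 16.4 CPM, a difference of -0.55 (SE 0.29, adjusted p = 0.243) that was -0.17 without those controls. When the spread was shared over all 12 groups, Arnt and Arnt2 passed p under 0.005, but so did 14.5% of genes.

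The mitochondrial share of these libraries was uneven, and its order matched that of the 3 genes only in part. Controls 61 and 6, lowest for Arnt and Arnt2, had the highest shares of all 32 APOE-TR mice, 21.8% and 18.3%. Control 63, at 13.7%, had more Arnt2 than control 52, at 12.5%, and Tiparp was higher in control 6 than in control 61. Among the nPM mice, mouse 55 had a share of 14.9%, the lowest Arnt and the highest Tiparp of its group but the second highest Arnt2 (340.0 CPM), and mice 70, 59 and 67 had 10.3%, 7.79% and 7.67%. The slope of level on transcript length, relative to the mean of each gene over the table, ran from -0.44 to -0.10 log2 units per doubling of length in the 4 controls, and from -0.18 to -0.01 in the nPM mice. Marker lists differed between these groups as well, each with all its genes detected. Microglial genes summed to 327.0 to 458.7 CPM in filtered air and 238.9 to 324.9 CPM in nPM, without overlap. Oligodendrocyte genes summed to 4880 to 7101 CPM and 3741 to 5103 CPM, and the cortical genes to 433 to 781 CPM and 701 to 1082 CPM. Choroid plexus genes summed to 1489 CPM in control 6 and to 9.03 to 96.4 CPM in the other 7 mice. The part of the mitochondrial share, the length slope and these markers in the values of Arnt, Arnt2 and Tiparp was not tested.

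**Figure D4:**
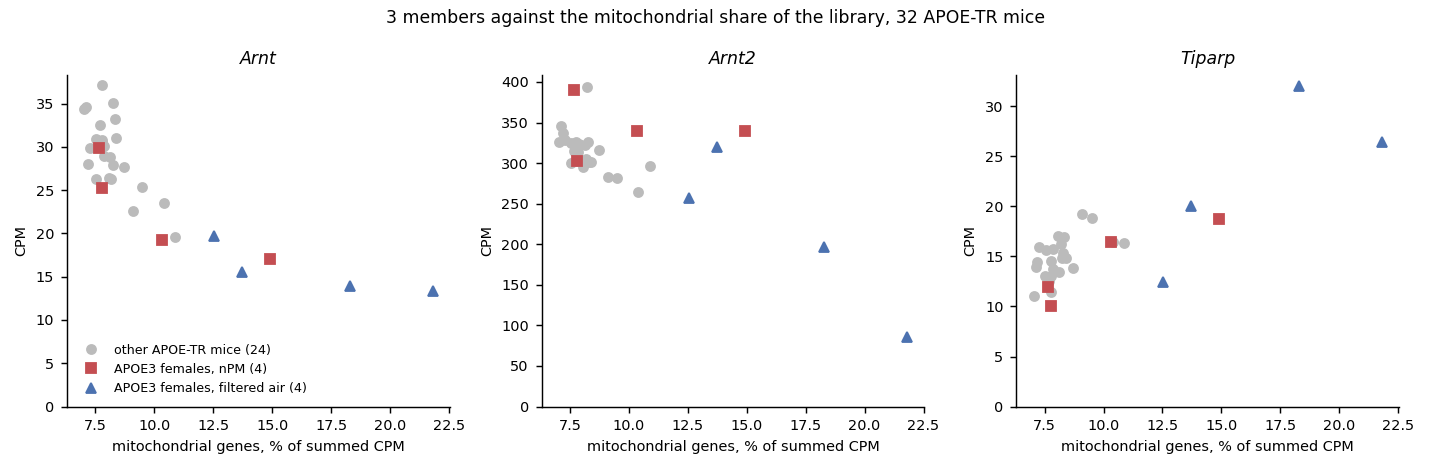
CPM of Arnt, Arnt2 and Tiparp (y axes, linear) against the percent of summed CPM in 13 mitochondrial genes (x axis) in 32 APOE-TR mice, 1 point each. The 2 filtered-air APOE3 females with the highest shares (18.3% and 21.8%) have the lowest Arnt2 values (197 and 86.1 CPM) and the highest Tiparp values (32.1 and 26.4 CPM).

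Whether the response to nPM differed between sexes or between alleles was tested as a contrast of groups. Between sexes 0 of 4 members were called (background 1.97%), and Arnt2 came closest, with a response 0.34 higher in females than in males (SE 0.18, limma adjusted p = 0.404). Between APOE4 and APOE3, 0 of 6 members were called (background 0.726%). Relative to APOE3, the response of Arnt in APOE4 was -0.28 (SE 0.15, limma adjusted p = 0.443), that of Arnt2 -0.39 (SE 0.22, adjusted p = 0.443), and that of Tiparp 0.25 (SE 0.19, adjusted p = 0.493). No member reached p under 0.05 in either contrast, where 13.5% of genes did so between sexes and 10.6% between alleles. Without APOE3 females the difference between alleles is that of males alone, and it was 0.06 for Arnt2 and -0.06 for Tiparp (0.0677% of genes called). The difference between sexes is then averaged over B6 and APOE4 mice, and it was 0.037 for Arnt2 (1.72%). Both are other contrasts than those above.

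The second question was whether the pathway differed between APOE4 and APOE3. Over all 48 mice 0 of 4 members were called at 5% FDR (background 0.378%). Arnt was 0.23 higher in APOE4 (SE 0.11, limma adjusted p = 0.331), or -0.10 without APOE3 females (0.207% called). In that last fit the APOE3 mice were all males, and the sex term came from B6 and APOE4 mice. Its allele term cannot be told apart from a sex difference that varies between genotypes. In filtered-air females 0 of 6 members passed (background 0.231%), in filtered-air males 0 of 7 (0.433%), in nPM females 0 of 7 (0.145%) and in nPM males 0 of 7 (0.474%). No member reached p under 0.05 over 48 mice, in filtered-air males, in nPM females or in nPM males, where 15.1%, 5.82%, 9.1% and 9.85% of genes did.

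In filtered-air females the estimate for Arnt was the largest of these fits. The 4 filtered-air APOE3 females are also the controls of the nPM comparison in APOE3 females. Arnt had 19.6, 23.5, 26.5 and 26.3 CPM in APOE4 mice 7, 21, 26 and 38, against 13.4 to 19.7 CPM in the APOE3 controls. On the rescaled log2 scale the groups did not overlap, as for 29.1% of all genes there, and Arnt was 0.67 higher in APOE4 (SE 0.17, limma adjusted p = 0.0765; exact permutation p = 0.0286). It was the 1 member of 6 at p under 0.05, with 41.1% of genes. Its unadjusted limma p of 0.0031 was also under 0.005, which the study names beside 5% FDR for the allele. The share of all genes under 0.005 was not counted there. Arnt2 was 264 to 305 CPM in APOE4, within the range of the APOE3 mice, and differed by 0.65 (SE 0.37, adjusted p = 0.211). Without controls 6 and 61 the differences were 0.45 (adjusted p = 0.104) for Arnt and 0.034 for Arnt2, and 2.04% of genes were called. Leaving out control 52 instead brought Arnt (0.80) and Tiparp (-0.54) past 5% FDR, along with 38.9% of genes. With the spread shared over the 8 APOE-TR groups, Arnt and Arnt2 passed, with 55.3% of genes.

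In males no member passed for the allele. Arnt differed by 0.06 (SE 0.09) in filtered air and by -0.10 (SE 0.09) in nPM, and Arnt2 by -0.05 (SE 0.08) and 0.01 (SE 0.04). Ahrr was higher by estimate in APOE4 in filtered-air females (0.21, SE 0.16), filtered-air males (0.20, SE 0.10) and nPM females (0.19, SE 0.10), and it was -0.02 (SE 0.12) in nPM males. In nPM females it had 0.884, 1.06, 0.932 and 0.939 CPM in APOE4 and 0.891, 0.811, 0.626 and 0.831 CPM in APOE3. The lowest APOE4 mouse lay below the highest APOE3 mouse in deposited CPM and above it once rescaled, so the groups overlapped on the first scale and not on the second, as for 5.85% of genes (exact permutation p = 0.0286 on the rescaled scale). In the males 0 of 7 members had groups without overlap, in filtered air (3.76% of genes) and in nPM (5.74%). Over the 32 APOE-TR mice in 1 fit the allele difference of Ahrr was 0.15 (SE 0.06, limma adjusted p = 0.0841), where 5.94% of genes passed 5% FDR. Cyp1a1 reads in APOE3 against APOE4 numbered 9 against 15 in filtered-air females and 13 against 22 in nPM males (exact permutation p = 0.657 and 0.286). The sums went the other way in filtered-air males, with 17 against 15, and in nPM females, with 15 against 10 (exact permutation p = 0.371 and 0.286).

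**Figure D5:**
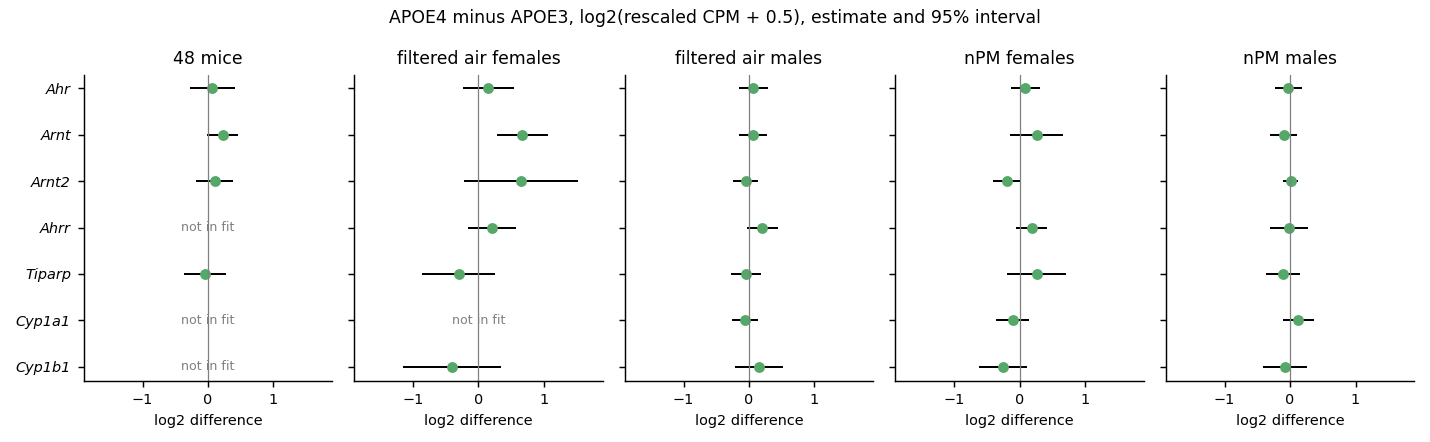
Log2 difference of APOE4 minus APOE3 (x axis, log2 of rescaled CPM + 0.5) with its 95% interval from limma, for the 7 genes (y axis) over 48 mice and in 4 pairs of groups of 4. The interval of Arnt in filtered-air females (0.29 to 1.05) is the one that lies clear of 0; intervals in males are narrower than in filtered-air females for Arnt, Arnt2 and Tiparp.

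Sex was a term of the 48-mouse fit, and 1 of 4 members was called for it at 5% FDR (background 36.7%): Arnt was lower in females, at -0.34 (SE 0.09, adjusted p = 0.0033 by limma). At p under 0.05 Tiparp joined it, higher in females at 0.26 (adjusted p = 0.0843), with 46.1% of genes. For Arnt the difference was -0.53 in APOE-TR mice alone, where 60.4% of genes were called. It was 0.03 (SE 0.20) in B6 mice alone and -0.13 (SE 0.09, not called) without APOE3 females (23.2%). Tiparp was also called in APOE-TR mice alone (0.25), by edgeR on their reads (0.29, with 59.9% of genes) and by voom with ComBat over 48 mice (0.31, 49.3%). In APOE4 mice alone Arnt, Arnt2 and Tiparp were called (-0.29, -0.13 and 0.28, with 38.4% of genes). Leaving out B6 female control 43, B6 female nPM mouse 51, B6 male control 2 or APOE3 female nPM mouse 59 called 2 members (with 36.7%, 36.8%, 36.3% and 37.8% of genes). In APOE-TR mice read depth did not overlap between the sexes, so sex and library cannot be told apart there. Arnt2 was 0.50 higher in B6 females (SE 0.15, adjusted p = 0.0191 in B6 mice alone, where 26.1% of genes were called) and -0.26 in APOE-TR females (SE 0.13, adjusted p = 0.0762).

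The wider pathway was read from 4 lists. Of 12 genes of the receptor complex and its coactivators, all 12 were tested over 48 mice, and for nPM 0 were called higher and 1 lower, against 1.48% of all genes. This was Cul4b, a scaffold of the ubiquitin ligase that the receptor can assemble, at -0.32 (SE 0.09, adjusted p = 0.301), and it remained past p under 0.005 without controls 6 and 61 (-0.28), where 0.342% of genes were called. The chaperones were near 0, with Hsp90ab1 (904 CPM over APOE-TR mice) at 0.00 (SE 0.04) and Hsp90aa1 (445 CPM) at -0.09 (SE 0.07). Of 12 other genes known to respond to the receptor, 4 could be tested over 48 mice (10 in each APOE-TR stratum). Over 48 mice 0 rose and 1 fell at p under 0.005. This was Nfe2l2, which encodes the oxidative stress factor NRF2, at -0.26 (SE 0.09, adjusted p = 0.301), and without those controls it was -0.24 and no longer past p under 0.005. The medians of these 2 lists were 0.08 and -0.10, against 0.01 over all genes, and 0.02 and -0.11 without those controls.

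Of 10 enzymes that make receptor ligands from tryptophan, 3 passed the filter of the 48-mouse fit, and 0 were called for nPM. In the nPM fits of single strata 9 were tested in APOE3 males, and 7 in APOE3 females and in APOE4 mice of each sex. Kyat1 averaged 5.18 CPM and Ido1 3.42 CPM over the APOE-TR mice. Of 8 bHLH-PAS proteins that pair with ARNT or ARNT2, 4 were tested and 0 called, with Epas1 at 0.07 (SE 0.08) and Hif1a at -0.13 (SE 0.07). Cyp1a2, a further classical target, had no read in 20 of 32 APOE-TR mice. In the 6 strata and for the allele, 0 genes of the 4 lists were called. For sex over 48 mice, where 36.7% of all genes were called, 2 complex genes were called higher and 6 lower in females (Hsp90aa1 0.42, Ncoa3 -0.43 and Hsp90ab1 -0.14 had the smallest p), 1 responsive gene higher (Cdkn1b 0.41) and 2 lower (Slc7a5 -0.79, Xdh -1.09), with Kyat1 at -0.44 and Epas1 at -0.25. Without APOE3 females (23.2% called) 1 complex gene remained called, Hsp90aa1 at 0.46, as did Cdkn1b (0.32), Slc7a5 (-0.68), Xdh (-0.87) and Kyat1 (-0.64). Ncoa3 (-0.17), Hsp90ab1 (-0.10) and Epas1 (-0.10) were then not called.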

How the data were processed

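The authors mapped single-end reads with TopHat2 2.0.8b to mm10 in Partek Flow and deposited CPM per gene and mouse, in 1 table for each exposure. The divisor is not given in the sources used here: CPM summed to 526568 to 667121 per B6 mouse and 670445 to 880442 per APOE-TR mouse. In each mouse the lowest CPM stands for a gene without reads, and every further read adds the same amount again, so CPM over that lowest value, less 1, gives reads. Within 0.02 of a whole read lay 95.2% to 96.1% of low values (up to 20 steps) in APOE-TR mice, and fewer in B6 mice, whose reads are estimates. Symbols listed more than once (4 listings per table) were left out. A filtered-air APOE3 female column, control 6, carries an animal number of no sample and was used by the group in its name.

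Values were rescaled by TMM (edgeR 4.0.16) within each table. Log2 of CPM + 0.5 was tested with limma 3.58.1 (R 4.3.3, eBayes with trend) for genes above the lowest value in every mouse of a fit, with Benjamini-Hochberg adjustment over all genes tested. All 48 mice were fitted with sex, genotype and exposure, and other fits compared 4 with 4 mice. A gene was called at p under 0.005 for nPM and for differences of responses, and at 5% FDR for APOE allele and sex. The study used the first threshold for nPM and names both for the allele. The use of 5% FDR alone for the allele, and of these thresholds for response differences and for sex, was chosen here. Fold changes on this scale are understated for low genes. Single genes had two-sided exact permutation tests over 70 labelings. The samples are labelled as separate animals. Alternatives were 2 CPM added, no filter, median-of-ratios scaling, no rescaling, voom (with ComBat, sva 3.50.0, for 48 mice), edgeR quasi-likelihood on recovered reads, a spread estimated over all groups of a table or series, fits of some mice alone, and leaving out mice in turn. The edgeR test called 115 of 15958 genes for nPM in APOE-TR mice and limma 111 of 15972. The procedure was tested on simulated data in which 200 genes of higher level were changed. That test does not cover genes as low as Cyp1b1, Ahrr and Cyp1a1, or libraries as uneven as those of the APOE3 females.

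The 7 genes, the lists and the named genes (all members, up to 3 called genes per list and comparison, otherwise the 2 with the highest level) were chosen with earlier results of these data known. Promoter sequences are from RefSeq, build GRCm38.p6.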

Additional observations from a re-analysis of the deposited data

Results flagged for a closer look

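A single mouse stood far from the other 3 of its group in 3 of 78 gene and group pairs tested by Dixon's criterion, and chance gives about 1 in 20. Cyp1b1 was 4.27 CPM in nPM-exposed B6 female 52, against 0.482 CPM in the next mouse. That mouse also had the highest summed fibroblast and meninges markers (49.0 CPM), choroid plexus markers (74.9 CPM) and Ahrr (1.51 CPM) of its group and the lowest Ahr (1.22 CPM). Cyp1b1 was 3.47 CPM in filtered-air APOE4 female 7, against 1.93 CPM in the next, and that mouse had the highest fibroblast and meninges sum of its group, 85.9 CPM. Arnt2 was 302 CPM in nPM-exposed APOE3 male 76, below 325.9 to 328.7 CPM in the other 3, and choroid plexus markers summed to 1036 CPM in that mouse. The part of these markers in the values was not tested.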

How the results depend on the processing

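No member passed the test for nPM, allele or a difference of responses under the alternatives run, except where the spread was shared over groups, which called 2 in APOE3 females for nPM and 2 in filtered-air females for allele (0 otherwise), and without filtered-air APOE3 female 52, as given in the report. Leaving out each mouse gave 0 to 2 calls in filtered-air females and 1 to 2 for sex. For sex, where 1 member was called, 2 were called by voom with ComBat, in APOE-TR mice alone and by edgeR on recovered reads, 3 in APOE4 mice alone, 0 without APOE3 females, and 1, Arnt2 in place of Arnt, in B6 mice alone. The cause of these shifts was not tested. Of the values of single members under alternatives other than leaving out a mouse, 582 kept direction and side of the threshold, 9 passed it, 1 lost it and 19 changed sign; leaving out a mouse changed sign in 63 values and kept direction and side in 1395.

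Sign changes among log2 differences were as follows. For nPM over 48 mice, Ahr (-0.06) was 0.049 with voom and ComBat, 0.047 in APOE-TR mice alone and 0.042 by edgeR. For the allele over 48 mice without APOE3 females, Ahr was -0.19, Arnt -0.096 and Arnt2 -0.18. There the APOE3 mice were all males and sex was fitted from B6 and APOE4 mice, so allele and sex are mixed. Compared within males, Ahr was 0.06 in filtered air and -0.03 in nPM, and Arnt2 -0.05 and 0.01. Without APOE3 females the sex difference of the nPM response of Tiparp, over B6 and APOE4 mice, was 0.14. The allele difference, then of males alone, was 0.063 for Arnt2 and -0.063 for Tiparp. For sex, Arnt2 (-0.01) was 0.0060 without rescaling, 0.50 in B6 mice alone and 0.18 without APOE3 females, Arnt was 0.033 in B6 mice alone, and Ahr (0.20) was -0.10 in APOE-TR mice alone and by edgeR, -0.050 in APOE4 and -0.15 in APOE3 mice alone. Without APOE3 female controls 6 and 61, Ahrr was -0.11 for nPM in APOE3 females and Tiparp 0.078 for the allele in filtered-air females.

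With each mouse left out, the values that changed sign in any fit ranged as follows. For nPM in B6 females, Ahr -0.54 to 0.38, Tiparp -0.22 to 0.38. For nPM in B6 males, Arnt2 -0.054 to 0.35, Tiparp -0.51 to 0.14, Cyp1b1 -0.43 to 0.021. For nPM in APOE3 females, Ahrr -0.073 to 0.15. For nPM in APOE3 males, Ahr -0.034 to 0.071, Arnt2 -0.11 to 0.021, Tiparp -0.12 to 0.050. For nPM in APOE4 females, Arnt2 -0.010 to 0.061, Ahrr -0.049 to 0.073, Tiparp -0.061 to 0.096. For nPM in APOE4 males, Arnt2 -0.022 to 0.041, Cyp1b1 -0.19 to 0.066. For APOE4 against APOE3 over all 48 mice, Arnt2 -0.018 to 0.14, Tiparp -0.097 to 0.0016. For APOE4 against APOE3 in filtered air males, Arnt -0.0081 to 0.13, Arnt2 -0.11 to 0.023, Tiparp -0.13 to 0.00015. For APOE4 against APOE3 in nPM males, Ahr -0.073 to 0.017, Arnt2 -0.015 to 0.026, Ahrr -0.095 to 0.048, Cyp1b1 -0.16 to 0.067. For response differences between sexes, Tiparp -0.15 to 0.063. For response differences between alleles, Cyp1b1 -0.16 to 0.098. For sex over all 48 mice, Arnt2 -0.045 to 0.077.

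Counts of all genes called also moved. For nPM over 48 mice 164 genes were called, 75 in B6 mice alone, 39 without APOE3 females and 38 without APOE3 female controls 6 and 61. Sharing the spread over groups gave 1175 in B6 females (177 otherwise), 724 in B6 males (37, and 57 with no filter), 1609 in APOE3 females (109) and by limma 0 in APOE3 males (26), APOE4 females (45) and APOE4 males (30, and 46 with no filter), with 4, 25 and 1 genes at p under 0.05 in these 3. For the allele over 48 mice 42 genes became 71 with no filter, 176 with voom and ComBat, 948 in APOE-TR mice alone, 953 by edgeR and 23 without APOE3 females. In filtered-air females 38 became 8830 with a shared spread and 341 without controls 6 and 61, and a shared spread gave 36 in filtered-air males (73), 38 in nPM females (24) and 38 in nPM males (80). The allele difference of responses called 116 genes, and 11 without APOE3 females, where it is that of males alone. For sex 4076 became 9642 in APOE-TR mice alone, 9558 by edgeR, 9043 in APOE3 and 6275 in APOE4 mice alone and 2575 without APOE3 females.

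No paired analysis was possible because the groups compared 4 against 4 share no replicate numbers, which are animal numbers. Depth limited Cyp1a1 and Ahrr, which in B6 mice rest on 0 to 38 estimated reads. The edgeR test was not run for B6 mice or for the difference between sexes. The alternatives with no rescaling, edgeR, 1 allele alone and without controls 6 and 61 were chosen after seeing the data.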

Other observations

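For each member the 3 genes most like it were read from Pearson correlations of rescaled log2 CPM over the 32 APOE-TR mice, among 15971 genes, as a description. Cyp1b1 was closest to Omd (r = 0.80), Lum (0.79) and Dcn (0.79), genes of the extracellular matrix, of which Lum and Dcn are on the fibroblast and meninges list. Over the 24 mice that were not APOE3 females the correlations were 0.60, 0.72 and 0.64, and over the 16 B6 mice 0.087, 0.21 and 0.77. Arnt was closest to Abcc5 (0.98), Fam178a (0.97) and Pfkfb2 (0.97), which were at 0.92, 0.90 and 0.90 without APOE3 females, while Abcc5 was at -0.38 and Pfkfb2 at -0.24 in B6 mice. Arnt2 was closest to Rap1gap2 (0.95, and 0.63 in B6 mice), Tiparp to Zfp719 (0.88, and 0.26 in B6 mice), Ahr to Kcns3 (0.77) and Ahrr to Gm16287 (0.71). The points share library depth, which differed between the sexes, and the mitochondrial share, which was highest in APOE3 females. Between members, Arnt and Arnt2 had r = 0.66 over 32 mice, 0.60 without APOE3 females and 0.42 in B6 mice, and Arnt and Tiparp had -0.67, -0.50 and 0.21.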
